A study of Mus musculus with 12 samples.

Results

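The lines compared here are mouse embryonic stem (ES) cells called rtTA-Dmrt5 and rtTA, both turned towards a neural fate and both left without doxycycline (Dox). In rtTA-Dmrt5 cells a Dmrt5 transgene can be induced with Dox by way of the activator rtTA, and the parental line is named for the activator alone. The comparison takes 4 of the 12 arrays of the study, 2 of each line at day 7, with every probe set that names 1 gene symbol: 34945 of 45101 probe sets, which were joined into 18193 genes. It measures how the engineered line differed from its parent without induction.

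All cells grew as a monolayer in N2B27, a serum-free medium in which ES cells turn into neural progenitors without added inducers. The groups used are rtTA at day 7 without Dox, rtTA-Dmrt5 at day 7 without Dox, and the same lines at day 7 with Dox given from day 5, each with 2 arrays; the other 4 arrays are rtTA-Dmrt5 cells at day 9 with and without Dox. The labels give neither the promoter of the transgene nor its place in the genome, and do not say whether the rtTA-Dmrt5 line came from 1 clone. Whether the 2 arrays of a group came from separate cultures is not stated either, and p-values then cover only the spread between these arrays, which may be technical.

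Dmrt5 is the older name of Dmrta2, a transcription factor with a DM-type DNA-binding domain that is needed for the dorsal telencephalon and the cortical hem and that also acts in the midbrain. ES cells in this medium leave the pluripotent state through an epiblast-like stage, and neural progenitors of anterior character follow, while a minority of cells can take mesodermal or endodermal routes. Primitive endoderm, the second lineage that arises beside the epiblast, is marked by Gata factors, Sox17 and a laminin-rich basement membrane.

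Each deposited value is a log2 value set to 0 at its probe set's median of all 12 arrays, so that it shows differences between arrays but no expression level. Differences are log2 values of rtTA-Dmrt5 minus rtTA with their standard error (SE), n = 2 arrays a group, from limma with Benjamini-Hochberg adjustment over all 18193 genes. "Higher" and "lower" in counts mean an adjusted p under 0.05. Over all genes 15.2% were higher and 13.4% lower, and the counts of each list are to be read beside these shares. The number of arrays limits the precision.

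Dmrta2 itself lay at -0.22 and 0.14 in the 2 parental arrays and at 1.91 and 1.85 in the 2 rtTA-Dmrt5 arrays. It was higher in both rtTA-Dmrt5 arrays without any inducer, by 1.92 ± 0.33 (limma adjusted p = 0.00222). With Dox it lay at 0.41 and -0.28 in the parental arrays and at -0.14 and -0.95 in rtTA-Dmrt5. The lines then did not differ past the threshold (-0.61 ± 0.33, adjusted p = 0.228), and the change of the difference was itself past it (-2.52, adjusted p = 0.0210). Which stretch of the transcript the gene's 1 probe set reads, and so whether it reads the transgene, is not stated in the labels or the probe annotation.

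Neural progenitor markers moved in both directions, and about as often as genes in general. Of the 18 markers 16 were bright, with a median over the arrays of 8 or more on the log2 scale (the level, read from the number format of the deposited values), and 3 were higher and 3 lower, where 15.2% and 13.4% of all genes were. Their mean value lay at 0.04 and 0.03 in the parental arrays and at 0.08 and 0.06 in rtTA-Dmrt5. Sox1, the earliest definitive neural marker, differed by -0.23 ± 0.15 (adjusted p = 0.299), Sox2 by 0.28 ± 0.11 (adjusted p = 0.0743) and the filament gene Nes by -0.09 ± 0.12 (adjusted p = 0.656). Pax6 (-0.55), Sox3 (-0.47) and Fabp7 (-0.42) were lower, and Prom1 (0.30), Hes5 (0.70) and Zbtb16 (0.84) higher. With 1 array left out at a time, 1 to 2 of the 18 passed as higher and 1 to 2 as lower; both counts were 1 without the first array of either line, 2 and 2 without the second parental array, and 2 and 1 without the second rtTA-Dmrt5 array.

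A measure of RNA integrity moved with the line. The 3' minus 5' difference of the Actb control probe sets was -0.37 and -0.28 in the parental arrays without Dox and 0.07 and 0.05 in rtTA-Dmrt5, and that of Gapdh was -0.14 and -0.08 against 0.05 and 0.04. Spike-ins that do not come from the cells overlapped between the lines, at 0.19 and 0.08 against 0.10 and 0.19. The part of RNA integrity in the differences below was not tested.

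Without Dox, 5206 of 18193 genes (28.6%) differed between the lines in limma, 2772 higher (15.2%) and 2434 lower (13.4%) in rtTA-Dmrt5. The arrays of the 2 lines did not overlap for any of the 5206, but that was so for 66.1% of all genes. At least 2-fold differences were seen for 924 genes (5.08%), 661 higher (3.63%) and 263 lower (1.45%). That lean to higher genes, 71.5%, was 53.7% (545 higher and 470 lower) when the arrays were quantile normalized again. This step was run on gene values already centred on their medians and gives these the same distribution in every array. It can therefore itself remove a lean between the lines, here and where it is used below, and does not decide whether the lean was real. Genes of level 8 or more passed in 36.8% of cases and those at 4 to 8 in 36.4%, against 7.80% at 2 to 4. The count was 3151 without the first parental array, 3832 without the second, 3469 without the first rtTA-Dmrt5 array and 3075 without the second, and 634 genes passed a test against a 1.5-fold difference.

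In the parental line Dox alone changed 0 genes past the threshold in limma, with 929 at an unadjusted p under 0.05. The arrays with Dox give a second measure of the line difference from 4 arrays that the first did not use, although Dox was there to induce the transgene. There, 4467 genes (24.6%) differed, 2486 higher (13.7%) and 1981 lower (10.9%), and the lines did not overlap for 62.1% of all genes. That count was 2868 without the first rtTA-Dmrt5 array with Dox and 2884 without the second. Of the 5206 genes called without Dox, 4757 (91.4%) had the same sign with Dox and 2780 were called again in the same direction, which is 53.4% of the first list and 62.2% of the second; 83 were called in the opposite direction. Over all genes the 2 differences had a Pearson r of 0.74 and a Spearman rho of 0.63, given as a description, since genes are not independent replicates.

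**Figure D1:**
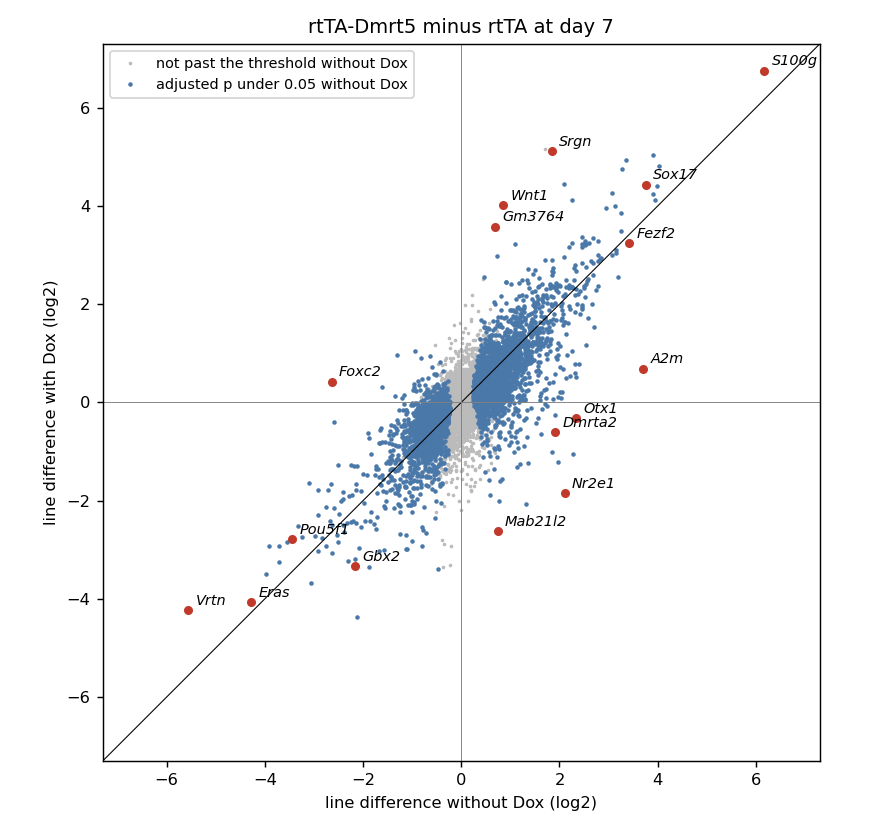
Line difference (rtTA-Dmrt5 minus rtTA, log2) of 18193 genes at day 7 without Dox (x axis) and with Dox (y axis), each from 4 arrays of its own; blue points passed adjusted p 0.05 without Dox, and red points are named. S100g, Sox17, Pou5f1 and Vrtn lie near the diagonal of equal differences, while Nr2e1, Mab21l2, Wnt1 and Foxc2 lie far from it.

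The 15 largest increases that passed were led by S100g, the small calcium-binding protein calbindin-D9k. S100g lay at -4.94 and -7.02 in the parental arrays and at 0.19 and 0.20 in rtTA-Dmrt5. The parental arrays were far below and far apart from each other, and the difference of 6.17 ± 0.53 (72.0-fold, adjusted p = 4.27e-05) was 6.75 with Dox. Trpv6, an epithelial calcium channel, was higher by 3.19. Sox17, a transcription factor of endoderm, lay at -3.42 and -3.23 against 0.55 and 0.32, a difference of 3.76 ± 0.25 (13.5-fold).

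Secreted and surface proteins were among the rest of these increases. They included Igfbp1, which binds insulin-like growth factors (3.98), Car4, a membrane-bound carbonic anhydrase (3.95), and F3, the trigger of coagulation (3.90). A2m, a protease inhibitor of plasma (3.71), and Cpm, a membrane carboxypeptidase (3.16), were others. Also among the 15 were Ctsh, a lysosomal protease (3.27), B4galnt2, a glycosyltransferase (3.91), and Gask1b (4.02). Ddn, a dendritic protein (3.35), and Usp18, an interferon-induced protease that removes Isg15 (3.26), belonged to the 15 too. The remaining 2 were regulators of the forebrain, the zinc finger factor Fezf2 (3.42 ± 0.14) and the ligand Wnt8b (3.25 ± 0.22). All 15 were called in the same direction with Dox, and so were the 15 decreases below. Of all 924 genes called at 2-fold or more without Dox, 761 were called in the same direction with Dox.

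Of the 15 largest decreases, the first was Vrtn, a gene that affects the number of vertebrae. Vrtn lay at 4.26 and 4.62 in the parental arrays and at -0.84 and -1.40 in rtTA-Dmrt5. The lines were wide apart, by -5.56 ± 0.24 (47.1-fold, adjusted p = 1.20e-06). ES cell genes followed: Eras, an ES cell Ras protein (-4.28), Dppa2 (-3.98) and Dppa4 (-3.25), a pair of chromatin factors, Zscan10 (-3.72), Utf1 (-2.98), L1td1 (-2.92) and Pou5f1, which encodes Oct4 (-3.44). Nkx1-2, a factor of caudal progenitors (-3.92), Mixl1, a homeobox gene of the primitive streak (-3.33), and Aldh1a2, which makes retinoic acid (-3.10), were also among them. Pim2, a kinase (-3.72), Thy1, a surface glycoprotein (-3.56), the predicted gene Gm9564 (-3.07) and Fbp1, an enzyme of gluconeogenesis (-2.92), completed the 15. The largest adjusted p of all 30 genes was 0.000231.

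**Figure D2:**
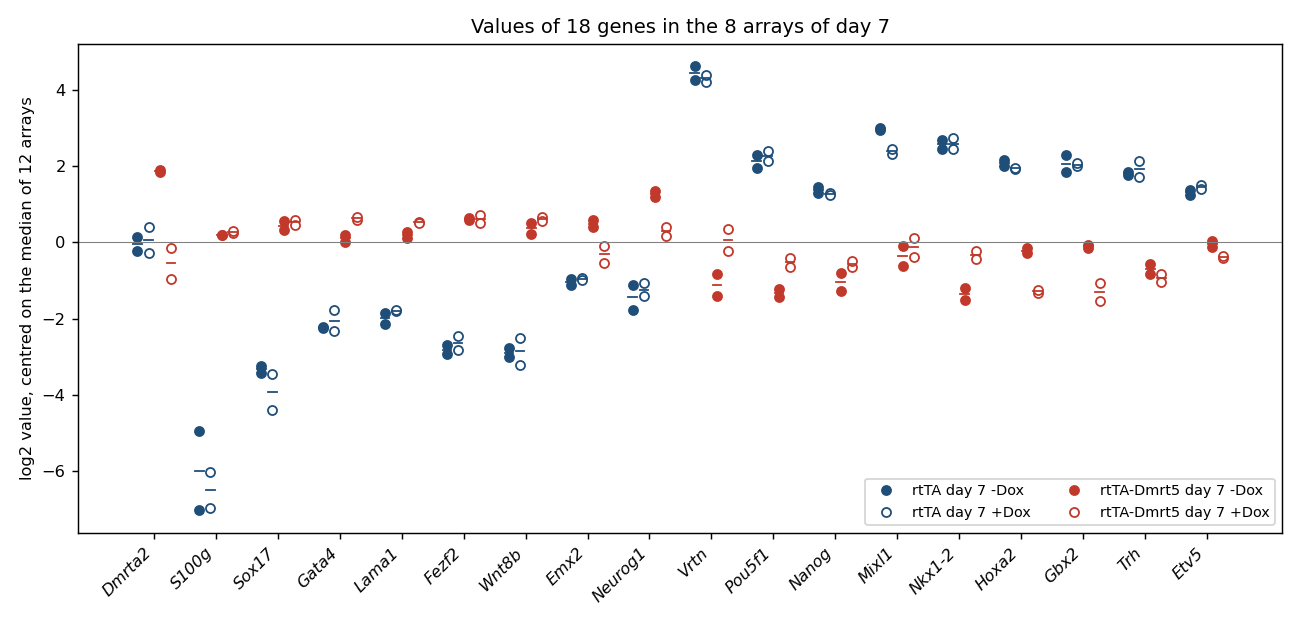
Centred log2 values (y axis) of 18 genes in the 8 arrays of day 7; each point is 1 array, filled without Dox and open with Dox, blue for rtTA and red for rtTA-Dmrt5, and short lines are means of 2 arrays. Both lines keep apart with and without Dox for S100g, Sox17, Vrtn and Pou5f1, while Dmrta2 is highest in the rtTA-Dmrt5 arrays without Dox.

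Genes of primitive and visceral endoderm were higher in rtTA-Dmrt5 as a group. Of 28 measured, 19 were higher and 0 lower, with a median difference of 1.33 against 0.02 over all genes, and 16 to 19 were higher with 1 array left out. Their mean value lay at -0.96 and -1.23 in the parental arrays and at 0.14 and 0.05 in rtTA-Dmrt5. The arrays did not overlap, which was so for 66.1% of all genes. With Dox, 21 were higher and the median was 1.85. Fewer cells of a type and less of their RNA per cell cannot be told apart in such bulk samples.

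Among the regulators, Gata4 lay at -2.24 and -2.21 in the parental arrays and at 0.20 and 0.01 in rtTA-Dmrt5. Both rtTA-Dmrt5 arrays were higher, by 2.33 ± 0.20 (adjusted p = 4.33e-05). Gata6, which sets primitive endoderm fate, was higher by 1.22, Hnf4a, a regulator of visceral endoderm, by 1.72 (with 1 of its probe sets averaged here at -0.07), Foxa3 by 1.20 and Sox7 by 0.60. The basement membrane genes rose together: Lama1 lay at -2.13 and -1.84 against 0.26 and 0.13 (2.18 ± 0.13), and Lamb1 (1.92), Lamc1 (1.01), Col4a1 (1.92), Col4a2 (1.43) and Sparc (1.44) were higher as well. Dab2, an endocytic adaptor of these cells, was higher by 2.26 and Pdgfra, an early receptor of the lineage, by 2.32.

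Secreted products of visceral endoderm were less uniform. Apoa2 (1.93), Rbp4, the carrier of retinol (1.85), and Apoe (0.45) were higher. Ttr, a carrier of thyroid hormone, lay at -1.45 and -3.06 against -0.47 and -0.63, so that the arrays did not overlap, yet its difference of 1.71 ± 0.59 missed the threshold (adjusted p = 0.0566). Afp, the fetal albumin of mature visceral endoderm, differed by 0.04 ± 0.12 (adjusted p = 0.857), and the receptor pair Cubn and Amn by 0.01 and -0.25, neither past the threshold.

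Promoters of 12 of the 19 higher endoderm genes were found in a RefSeq table (GRCm38.p6). The 250 bases before the start held TGTTTAC, a core letter string of forkhead sites, on either strand in 2 of the 12, Apoa2 and Rbp4. Of all 27025 genes with a promoter 3.54% held it. Both are printed to show the letters behind the count; capitals mark the match, which is a description and no site. In Rbp4 the match is on the strand not shown.
Apoa2, chr1:171224804-171225053, plus strand: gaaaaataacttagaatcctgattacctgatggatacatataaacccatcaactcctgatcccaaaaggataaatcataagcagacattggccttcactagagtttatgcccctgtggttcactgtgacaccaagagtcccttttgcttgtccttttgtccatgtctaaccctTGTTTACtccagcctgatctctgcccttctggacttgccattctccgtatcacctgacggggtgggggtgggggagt
Rbp4, chr19:38125322-38125571, minus strand: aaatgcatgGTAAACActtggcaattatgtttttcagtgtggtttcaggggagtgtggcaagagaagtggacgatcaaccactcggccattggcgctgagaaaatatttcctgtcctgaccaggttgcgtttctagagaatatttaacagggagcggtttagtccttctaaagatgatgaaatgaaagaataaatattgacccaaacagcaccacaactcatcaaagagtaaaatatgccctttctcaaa

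Pluripotency genes went the other way. Of 24 measured, 17 were lower, 3 higher and 4 not past the threshold, with a median of -1.33, and 17 to 18 were lower with 1 array left out. The list's mean value was 0.64 and 0.54 in the parental arrays and -0.70 and -0.65 in rtTA-Dmrt5. With Dox the counts were again 17 lower, and the median was -1.03.

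Pou5f1 lay at 1.96 and 2.28 in the parental arrays against -1.42 and -1.21, and the lines were 10.8-fold apart (SE 0.16 on the log2 scale, adjusted p = 1.84e-06). Nanog lay at 1.31 and 1.46 against -0.79 and -1.28 (-2.42 ± 0.15). Gdf3, Tdgf1 and Fgf4, secreted factors or co-receptors of ES cells, were lower (-2.75, -2.75 and -2.15), with 1 of 4 averaged probe sets of Fgf4 at 0.03. Zfp42, which encodes Rex1 (-2.25), Klf2 (-2.42), Dppa3 (-1.61), Lin28a (-1.44), Lefty1 (-1.22), Dppa5a (-1.14), Esrrb (-0.74) and Sall4 (-0.45) were lower too.

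The 3 pluripotency genes that rose were Klf4 (2.23 ± 0.15), Klf5 (2.78 ± 0.20) and Tbx3 (1.88 ± 0.14), transcription factors that ES cells use and that are also expressed outside them. Klf5 lay at -2.72 and -2.22 against 0.31 and 0.32. Its values in the rtTA-Dmrt5 arrays were close together and far above the parental ones.

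Promoters of 9 of the 17 lower pluripotency genes were matched. TTTGCAT, the core of the octamer that Oct4 binds, was found on either strand in 2, Nanog and Zfp42, against 4.65% of all 27025 genes with a promoter. Nanog is printed as the better known of the pair; capitals mark the match, and the 2 strings searched here do not overlap in any printed promoter.
Nanog, chr6:122707239-122707488, plus strand: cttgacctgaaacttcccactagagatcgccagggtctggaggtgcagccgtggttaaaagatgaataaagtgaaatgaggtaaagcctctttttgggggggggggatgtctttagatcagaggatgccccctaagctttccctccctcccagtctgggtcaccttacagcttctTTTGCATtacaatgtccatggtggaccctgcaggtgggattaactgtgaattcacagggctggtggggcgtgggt

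Epiblast genes were lower in 7 of 15 cases and higher in 2 (Otx2, 0.84, and Cldn6, 0.99). The DNA methyltransferase gene Dnmt3b lay at 1.17 and 1.44 against -0.66 and -0.73 (-1.998 ± 0.10). Wnt8a (-2.66) and Cer1, a secreted inhibitor (-1.32), were lower, while Fgf5, a marker of the primed epiblast, differed by -0.65 ± 0.29 (adjusted p = 0.133). That value rests on its brighter probe set alone. Its other probe set, of level 4 to 8, differed by -3.18 (adjusted p = 1.05e-05 in limma over single probe sets).

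Mesoderm and definitive endoderm genes split by kind. Of 25 measured, 11 were lower and 4 higher, and the 4 higher ones, Sox17, Gata4, Pdgfra and Gata6, are shared with primitive endoderm. The lower ones were factors of streak and mesoderm: Mixl1 (2.93 and 3.002 against -0.10 and -0.62), Tbx6 (-1.41), Mesp1 (-1.05), Meox1 (-1.17), Actc1, a cardiac actin (-1.78), and Eomes (-0.52). The count of lower genes was 6 to 9 with 1 array left out, 7 without the second parental array and 6 without the second rtTA-Dmrt5 array. Of the 3 genes with a level of at least 8, a choice that the line difference itself can affect, 2 were higher and 0 lower.

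**Figure D3:**
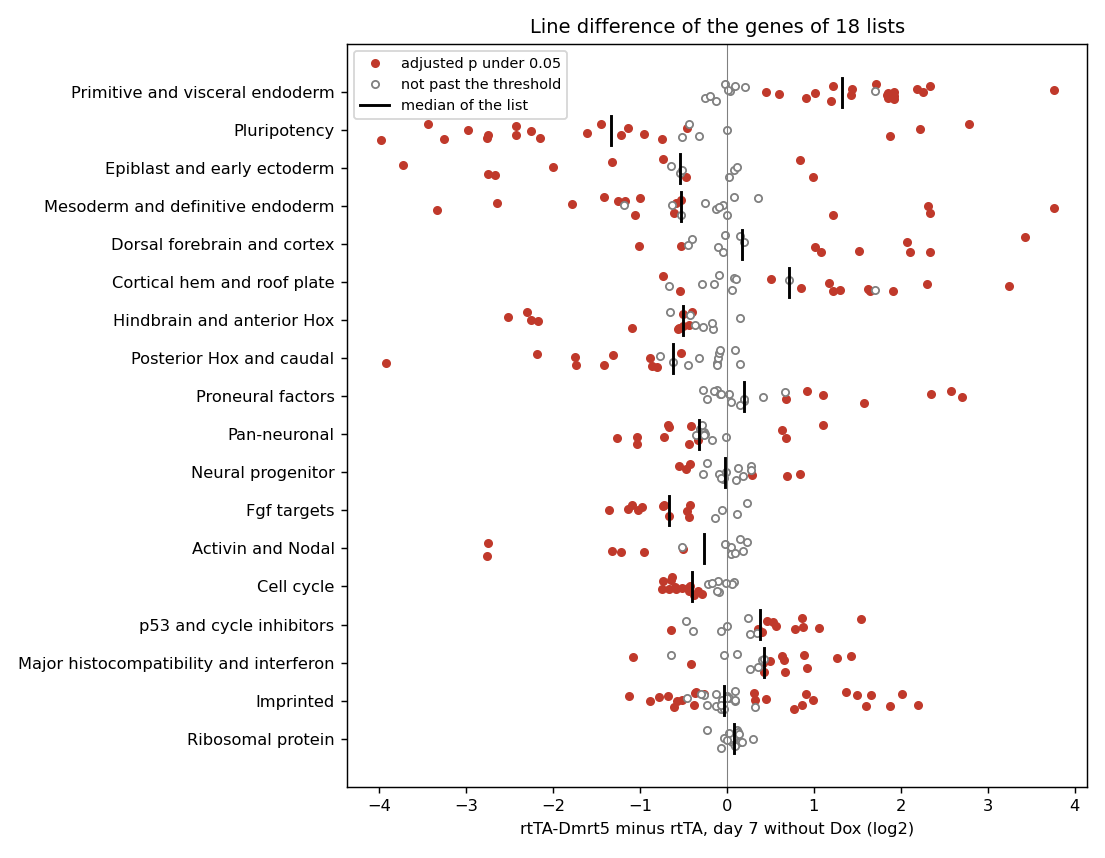
Line difference without Dox (x axis, log2, rtTA-Dmrt5 minus rtTA) of every measured gene of 18 lists; each point is 1 gene, red past adjusted p 0.05 and open otherwise, and black bars are list medians. The endoderm median stands at 1.33 and the pluripotency median at -1.33, while neural progenitor and ribosomal protein genes lie around 0.

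Along the axis of the neural tube, the calls among hindbrain and trunk genes were all lower, and those among hem genes mostly higher. Of 16 dorsal forebrain genes 7 were higher and 2 lower, of 21 genes of the cortical hem and roof plate 10 were higher and 2 lower, of 18 hindbrain and anterior Hox genes 0 were higher and 11 lower, and of 21 posterior Hox and caudal genes 0 were higher and 10 lower. The medians were 0.18, 0.72 (0.45 after quantile normalization again), -0.51 and -0.62. The forebrain direction turned among the 7 of its genes with a level of at least 8, of which 1 was higher and 2 lower (median -0.10). The hindbrain count was 6 without the first parental array, 7 without the second, 5 without the first rtTA-Dmrt5 array and 6 without the second. With 1 array left out the posterior count was 7 to 9, and the forebrain and hem counts of higher genes were 7 and 9 to 10; lower forebrain genes numbered 0 without the first parental array or the second rtTA-Dmrt5 array and 1 without either of the others, and the 2 lower hem genes 0 without the first parental array and 1 without the first rtTA-Dmrt5 array.

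Fezf2, which specifies layer-specific cortical neurons, lay at -2.93 and -2.69 in the parental arrays and at 0.58 and 0.65 in rtTA-Dmrt5. Tbr1, a factor of postmitotic cortical neurons, was higher by 2.07, the homeobox genes Otx1, Emx2 and Lhx2 by 2.33, 1.52 and 1.09, and the orphan receptor Nr2e1 by 2.10. Emx1, a marker of the committed pallium, differed by -0.10 ± 0.21 (adjusted p = 0.771). Eomes, known from intermediate progenitors and counted above with streak and mesoderm genes, was lower, with 1 of its averaged probe sets at only -0.30. Which cells its value came from was not tested. Wnt8b lay at -2.77 and -3.004 against 0.22 and 0.52, apart in both arrays.

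In the hem and roof plate, genes of Wnt signals led: Rspo2, Rspo3 and Rspo1, secreted enhancers of Wnt signalling, were higher by 2.31, 1.91 and 1.63, Wnt3 by 1.17 and Wnt1 by 0.86. The zinc finger genes Zic1 (1.65) and Zic4 (1.22), the ligand Bmp6 (1.30) and Msx2 (0.51) were higher, and Zic2 (-0.74) and Lmx1b (-0.54) lower.

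Posterior genes were lower over a wide range. Hoxa2, of the hindbrain, lay at 2.002 and 2.16 in the parental arrays and at -0.29 and -0.15 in rtTA-Dmrt5 (-2.30 ± 0.17, adjusted p = 1.74e-05), and Hoxb1 differed by -2.52. The homeobox genes Gbx2 (2.28 and 1.85 against -0.14 and -0.07) and Gbx1 (-2.25), which mark the hindbrain side of its border with the midbrain, were lower in both arrays. Of trunk genes, Hoxd9 (-2.19), Hoxc4 (-1.74), Hoxc8 (-1.73), Hoxb9 (-1.30) and Cdx2 (-0.52) were lower.

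At the border of midbrain and hindbrain, 4 of 17 genes were higher and 6 lower, where 15.2% and 13.4% of all genes were. The higher ones included Otx2 (0.84), En2 (0.57) and Wnt1, and the lower ones the secreted factors Fgf8 (-0.86), Fgf17 (-1.02) and Fgf18 (-1.61). Only 1 was higher without the second parental array or the first rtTA-Dmrt5 array, and 2 without the second rtTA-Dmrt5 array, while 5 to 6 were lower. Of the 4 with a level of at least 8, a choice that the line difference itself can affect, 2 were higher and 1 lower. In the ventral telencephalon 1 of 15 was higher and 4 lower, among them Dlx1 (-1.09) and Dlx2 (-1.74), factors of inhibitory neurons. Of 15 genes of the eye field and hypothalamus 6 were higher, with Six3 (1.04, 1 of 3 averaged probe sets at -0.03), Mab21l1 (1.96) and Fezf1 (1.01), and 3 lower, with Otp (-2.63), a regulator of hypothalamic neurons, and Vax2 (-1.95).

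Members of the Dmrt family other than Dmrta2 were higher too. Of 8 measured, 4 were higher and 0 lower, and of the 4 that did not pass 3 had a level under 4. Besides Dmrta2, Dmrt3, another forebrain member, lay at -1.01 and -0.80 against 1.51 and 1.75 (2.53 ± 0.20). Dmrta1 lay at -0.26 and 0.03 against 1.41 and 2.03 (1.84 ± 0.21), and Dmrt1, known from the testis, at -0.18 and -0.24 against 1.05 and 0.92 (1.19 ± 0.12). The 2 lines did not overlap for any of these genes, which was so for every called gene and for 66.1% of all genes. With Dox the family had 1 higher, Dmrt3 (1.17), and 3 lower.

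Some factors that start neurogenesis were higher, and more genes of differentiating neurons were lower than higher. Of 20 proneural factors 7 were higher, 0 lower and 13 not past the threshold (median 0.20), and of 20 pan-neuronal genes 3 were higher and 9 lower (median -0.32); with any 1 array left out 6 proneural genes were higher, and 1 pan-neuronal gene was higher and 7 to 8 lower. With Dox 3 proneural factors were higher and 9 lower.

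Neurog1, a bHLH factor of dorsal and sensory progenitors, lay at -1.76 and -1.10 in the parental arrays and at 1.20 and 1.34 in rtTA-Dmrt5 (2.70 ± 0.23, adjusted p = 3.99e-05). Neurod1 (2.58), Olig2 (2.34), Neurog2 (1.57), Nhlh1 (1.11) and Olig1 (0.92) were higher. Syt4 and Syt1, calcium sensors of vesicle release, were lower (-1.26 and -1.03), and so were the growth cone gene Gap43 (-1.04), the microtubule-binding Mapt (-0.72) and the RNA-binding Elavl3 (-0.67). Tubb3 lay at 0.14 and -0.02 against -0.22 and -0.24, and its difference of -0.29 ± 0.10 missed the threshold (adjusted p = 0.0520).

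Transmitter genes moved singly. Of 27 neuropeptide and transmitter genes 5 were higher and 3 lower, near the shares of all genes (15.2% and 13.4%). Slc17a6, the transporter of glutamatergic neurons, was higher by 2.12 and Th, which makes the precursor of dopamine, by 1.74, while Trh, the precursor of a hypothalamic peptide, lay at 1.86 and 1.77 against -0.82 and -0.57 (-2.51 ± 0.17). Of 17 midbrain dopaminergic genes 6 were higher and 2 lower, and of 15 floor plate genes 3 and 2. The dopaminergic count of higher genes was 3 without the first parental array and 2 without the first rtTA-Dmrt5 array. Without the second parental array 7 floor plate genes were higher and 0 lower, without the second rtTA-Dmrt5 array 3 and 0, and the list's median of 0.12 was -0.08 without the first parental array and -0.06 after quantile normalization again. Of 30 axon guidance genes 6 were higher, led by the netrin receptor Dcc (1.72), and 9 lower, led by the repellent Sema3a (-1.66), 5 lower without the second parental array.

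Targets of Fgf signalling, which feed back on the Fgf and Erk pathway, were lower. Of 15 measured, 0 were higher and 11 lower (median -0.66), 8 to 9 with 1 array left out, and with Dox 11 were lower as well. Etv5, an Ets factor, lay at 1.39 and 1.26 in the parental arrays and at 0.05 and -0.11 in rtTA-Dmrt5 (-1.35 ± 0.09, adjusted p = 1.01e-05). The phosphatase gene Dusp6 (-1.13), the inhibitors Spry2 (-1.09) and Spry4 (-1.02) and the Ets factor Etv4 (-0.98) went with it.

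Among the other pathways, Activin and Nodal genes were lower in 6 of 14 cases and higher in 0, but 4 of the 6, Gdf3, Tdgf1, Lefty1 and Lefty2, are also pluripotency genes. In a separate test of only the genes with a level of at least 8, 1 of 6 was higher and 2 lower (median 0.02). For retinoic acid, the synthesizing Aldh1a2 (1.82 and 2.46 against -1.09 and -0.84) and the degrading Cyp26b1 (-2.13) were both lower. The receptor Rarg was lower (-1.44) and the target Tgm2 higher (2.07). In all 3 of 16 genes were higher and 4 lower, where 15.2% and 13.4% of all genes were. Wnt ligands and receptors were higher in 8 of 30 cases and lower in 2, with Wnt9a (1.999) beside those named above, while Wnt targets split into 4 higher and 5 lower of 20, with Rnf43, which removes Wnt receptors, at 1.83 and the factor Lef1 at -1.01; 3 were lower without any 1 array other than the first parental one.

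Of 18 Bmp targets 1 was higher and 5 lower, the latter 1 without the first parental array, 2 without the second, 3 without the first rtTA-Dmrt5 array and 2 without the second, and Bmper, a Bmp-binding protein, was the farthest (-1.65). Of 15 Shh pathway members and targets 0 were higher and 1 lower, Hhip (-0.47), and the receptor Ptch1 differed by 0.11 ± 0.09 (adjusted p = 0.407). Among all genes 15.2% were higher and 13.4% lower. Of 19 Notch genes 3 were higher, with Hes5, and 5 lower, with Hes7, the clock gene of presomitic mesoderm (-1.40); 2 were lower without the first parental array and 3 without the first rtTA-Dmrt5 array, and 1 was higher without any 1 array other than the second parental one.

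Cell cycle genes were lower by small amounts. Of 22 measured, 0 were higher and 14 lower (median -0.40), 10 to 11 with 1 array left out. The mitotic kinase gene Plk1 lay at 0.33 and 0.52 against -0.24 and -0.39 (-0.75 ± 0.09), and the cyclin genes Ccne1 (-0.73) and Ccna2 (-0.64) and the kinase genes Aurka (-0.66) and Cdk1 (-0.63) were lower. In a test against a 1.5-fold difference 0 of the 22 passed, and with Dox 1 was lower and 1 higher.

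Genes of a list of cycle inhibitors, p53 and its targets were higher in 10 of 18 cases and lower in 1, Cdkn1b (-0.64). Cdkn1a, which encodes p21, lay at -0.86 and -0.60 against 0.81 and 0.82 (1.54 ± 0.11, adjusted p = 1.14e-05), and Fas, a death receptor (1.06), Eda2r (0.88) and Ccng1 (0.78) were higher. The count of higher genes was 5 without the first parental array and 5 without the first rtTA-Dmrt5 array.

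Stress response genes were lower in 10 of 20 cases and higher in 0, led by the amino acid transporter Slc7a3 (-2.60 ± 0.17); the count was 6 without the second parental array and 5 without the second rtTA-Dmrt5 array. Of 24 genes of hypoxia and glycolysis 2 were higher and 8 lower, 4 lower without the second rtTA-Dmrt5 array and 5 without any 1 of the other 3, and 0 higher without the first array of either line and 1 without the second. Cholesterol synthesis genes were lower in 7 of 17 cases and higher in 0 (median -0.22). Ribosomal protein genes did not pass in any of 18 cases in limma, and 1 of 20 respiratory chain genes was higher and 2 lower. Among all genes 15.2% were higher and 13.4% lower. Of 14 immediate early genes 2 were higher and 4 lower; 1 was lower without the first parental array and 2 without the second rtTA-Dmrt5 array, and 1 was higher without any 1 of the other 3 arrays.

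Class I antigen genes and interferon targets were higher in 10 of 19 cases and lower in 2, with 6 higher without the first parental array. H2-K1 lay at -1.38 and -1.36 against 0.03 and 0.08 (1.43 ± 0.09), H2-D1 was higher by 1.26, and B2m, their light chain, by 0.67. H2-K1 and H2-D1 are near copies whose probe sets may read both. Ifitm1 was lower (-1.07 ± 0.13).

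Markers of other cell types that such cultures can hold did not move in 1 direction as lists, except those of glia and of endothelium and blood. Of 16 glia genes 6 were higher and 0 lower, 3 of the 6 being Olig2, Olig1 and Pdgfra, and of 19 endothelium and blood genes 5 were higher and 0 lower. Without the second rtTA-Dmrt5 array 3 glia and 2 endothelium and blood genes were higher, and without any 1 of the other arrays 3 of the latter. These were led by Tek (2.26) and Flt1 (2.01), both angiopoietin or Vegf receptors, while 13 of the 19 had a level under 4. Mean values of both lists did not overlap between the lines. They were -0.36 and -0.31 against 0.18 and 0.20 for glia and -0.27 and -0.21 against 0.09 and 0.13 for endothelium and blood. The neural progenitor means did not overlap either, nor did the arrays for 66.1% of all genes. The part of glia and of endothelium and blood in other differences was not tested.

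Of 16 neural crest genes 4 were higher and 5 lower, of 22 mesenchyme genes 4 and 7, and of 25 surface ectoderm genes 6 and 7. Without the second parental array, and likewise without the second rtTA-Dmrt5 array, 2 neural crest genes were higher and 3 lower, and 4 mesenchyme genes were lower. Higher mesenchyme genes numbered 1 without the first parental array, 2 without the first rtTA-Dmrt5 array and 1 without the second, and that list's median of -0.13 was 0.06 without the second parental array. Among genes with a level of at least 8 more were higher than lower in neural crest (3 and 1 of 7) and surface ectoderm (6 and 3 of 9). That level is a median over arrays of both lines, mostly rtTA-Dmrt5, so these counts are not independent of the line difference. Keratins of simple epithelium were among the higher ones, with Krt18 (1.91), Krt19 (1.59) and Krt8 (1.56), while the epithelial factor Grhl2 lay at 1.14 and 1.18 against -1.15 and -0.61 (-2.04 ± 0.19).

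Imprinted genes, expressed from 1 parental allele, moved both ways. Of 43 measured, 14 were higher and 11 lower, and 5 were lower without the first rtTA-Dmrt5 array and 7 without any 1 of the other 3. Nnat lay at -2.08 and -2.27 against -0.03 and 0.08 (2.20 ± 0.11), Nap1l5 at -1.57 and -1.57 against 0.50 and 0.39 (2.01 ± 0.13), and Dlk1 was higher by 1.37. Phlda2 (-1.12), and Mirg (-0.88) and Rian (-0.78), noncoding RNAs of the Dlk1 locus, were lower. Allele-specific expression was not measured.

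Of 23 clustered protocadherins 5 were higher and 0 lower, all 5 of the beta cluster, whose members are near copies of each other, and 3 were higher without the first parental array or the second rtTA-Dmrt5 array. Of 24 germline genes 3 were higher, with the X-linked Rhox6 (2.52) and Rhox5 (1.49), and 3 lower, near the shares of all genes (15.2% and 13.4%). For the 2-cell-like state 1 of 10 genes was higher and 2 lower. Of 17 X- and Y-linked dosage genes 1 was higher and 2 lower, Kdm6a (-0.90) and Hprt (-0.88).

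Line differences also followed 2 chromosomes. Chromosome names and gene order were taken from the RefSeq gene table, which covered 18018 of the genes. On chromosome 11, 487 of 1443 genes were higher and 53 lower, with a median difference of 0.20, and on chromosome 10, 75 of 860 were higher and 242 lower, with a median of -0.14. The medians of the other 18 chromosomes (1 to 9, 12 to 19 and X) lay between -0.02 and 0.05. Among genes with a level of at least 8, the medians were 0.28 and -0.26.

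With Dox, in 4 other arrays, the medians of chromosomes 11 and 10 were 0.217 and -0.125. The median value of chromosome 11 lay between -0.139 and -0.120 in the 4 parental arrays and between 0.019 and 0.074 in the 8 rtTA-Dmrt5 arrays, and that of chromosome 10 between 0.057 and 0.086 and between -0.046 and -0.015. For both chromosomes the lines did not overlap in any of the 12 arrays, day 9 included.

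**Figure D4:**
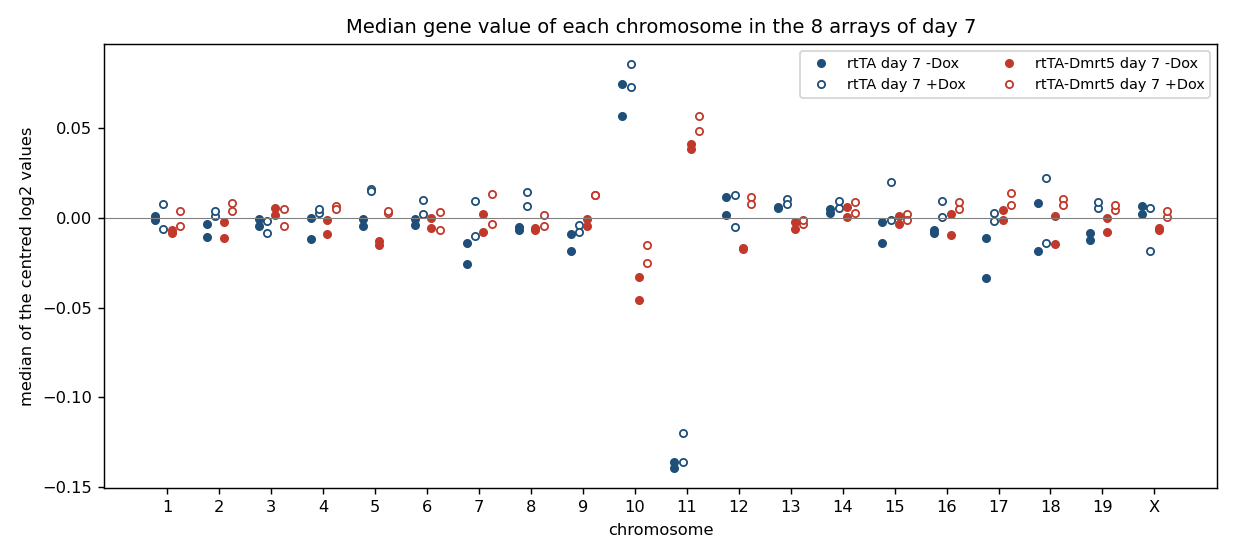
Median centred log2 value (y axis) of the genes of each chromosome (x axis) in the 8 arrays of day 7; each point is 1 array, filled without Dox and open with Dox, blue for rtTA and red for rtTA-Dmrt5. On chromosomes 10 and 11 the lines stand apart, and on the others they lie close to 0.

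The shifts ran along the whole of both chromosomes. In windows of 40 neighbouring genes with a level of at least 4, all 27 windows of chromosome 11 had a median above 0 (0.095 to 0.480), and all 16 windows of chromosome 10 a median below 0 (-0.379 to -0.0727), and with Dox the signs were the same in all of them. Of 278 windows of the other chromosomes 123 were above 0 and 155 below, from -0.248 to 0.285. Copy number was not measured.

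**Figure D5:**
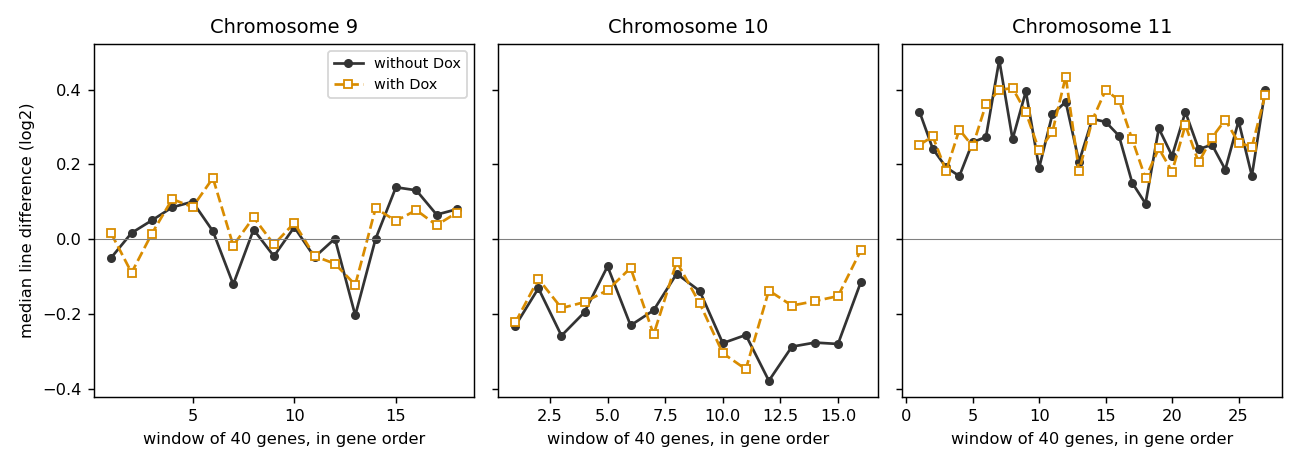
Median line difference (y axis, log2, rtTA-Dmrt5 minus rtTA) in windows of 40 genes with a level of at least 4, in gene order (x axis), on chromosomes 9, 10 and 11; circles are without Dox and squares with Dox, each from 4 arrays of its own. Chromosome 9 is shown for comparison and crosses 0, while every window of chromosome 10 lies below it and every window of chromosome 11 above it.

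Runs of neighbouring genes called in 1 direction were longest on chromosome 11. All 4 runs of 7 genes lay there, and they start at Vps54, Ttc19, Camta2 and Nek8 and end at Tmem17, Mmgt2, Rpain and 2610507B11Rik. The run from Vps54 holds Otx1, the forebrain gene described above. Of 2 runs of 6, 1 lay on chromosome 11 and the other, all lower, on chromosome 8, from Tex15 to Rbpms; the latter was singled out after its values were seen.

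Leaving out all genes of chromosomes 10 and 11, a step chosen after the data were seen, 4325 of 15715 genes (27.5%) were still called, 2194 higher and 2131 lower. Of the lists, 17 of 26 endoderm genes were then higher, 17 of 23 pluripotency genes lower and 8 of 11 Fgf targets lower. Of cell cycle genes 13 of 17 were lower, and of the list of p53 and cycle inhibitors 7 of 14 were higher. Wnt ligands and receptors were higher in 5 of 25 cases, against 8 of 30 with all chromosomes, and Wnt targets in 2 of 14, against 4 of 20. Dorsal forebrain genes were higher in 5 of 13 cases, against 7 of 16, and surface ectoderm genes in 4 of 21, against 6 of 25. Of the 15 largest increases 3 lie on chromosome 11, Igfbp1, Car4 and B4galnt2.

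For 511 genes (2.81%) the line difference changed with Dox, upwards in 156 (0.857%) and downwards in 355 (1.95%). After quantile normalization again the changes were 403 upwards and 514 downwards. The count was 336 without the first parental array without Dox and 292 without the second, 261 without the first rtTA-Dmrt5 array without Dox and 209 without the second, and 326 and 236 without the first and the second rtTA-Dmrt5 array with Dox. The 5 largest falls were those of Nr2e1, Gm20083, Mab21l2, Wfdc1 and Mab21l1, and the 5 largest rises those of Srgn, Wnt1, Foxc2, Gm3764 and Defa31. Nr2e1 lay at -0.16 and -0.35 in the parental arrays and at 1.71 and 1.99 in rtTA-Dmrt5 without Dox, a difference of 2.10 ± 0.25. With Dox its difference was -1.85, and the 2 differed from each other (adjusted p = 0.000589).

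Mab21l2 and Mab21l1, a pair of related genes of the eye and forebrain, were higher without Dox (0.74 and 1.96) and lower with it (-2.62 and -1.21). The secreted inhibitor gene Wfdc1 went from 2.28 to -1.05, and Gm20083 from 1.32 to -2.07. Foxc2, a forkhead gene of mesoderm, lay at 0.07 and 0.51 against -2.30 and -2.40 without Dox (-2.64 ± 0.16), and its difference was 0.42 with Dox, not past the threshold (adjusted p = 0.0802). Wnt1 went from 0.86 to 4.02, Srgn, a proteoglycan core, from 1.84 to 5.11, Gm3764 from 0.69 (-0.0497 after quantile normalization again) to 3.58, and Defa31, of the near-identical defensin family, from -1.30 to 0.97.

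Of forebrain and hem genes that were higher without Dox, several were no longer so with it. Otx1 (-0.32), Rspo3 (-0.26), Zic1 (-0.13) and Wnt3 (0.02) had differences that missed the threshold with Dox, Lhx2 (-0.71) and Fezf1 (-0.47) were lower, and for each of the 6 the change itself passed. Fezf2 (3.25) and Wnt8b (3.48) were still higher with Dox.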

How the data were processed

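RNA was amplified from total RNA and hybridised to Affymetrix arrays, per the labels' protocols. The authors deposited log2 values made with RMA, per the submitters' processing notes, which give no version. In the deposited table each probe set is centred on its median over the 12 arrays, and array medians lie between -0.01 and 0.01. That the scale is log2 and that larger values mean more RNA was taken from the method's name, and scanner files were not analysed here. A probe set's level class was read from the single-precision spacing of its values, which read 97.7% of 20000 simulated probe sets rightly.

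Probe sets took their symbols from the platform annotation: 34945 had 1 symbol, 932 had several and 9160 none, and these last 2 kinds and 64 control probe sets were left out of the tests. For each gene the probe sets of the brightest level class it reached were averaged, and for 5 of the genes named, Cubn, Fgf4, Hnf4a, Nes and Six3, 1 probe set so averaged had the opposite sign. All 12 arrays were fitted with group means in limma 3.58.1 (R 4.3.3), so the groups share 1 estimate of the spread. In a simulated test of the comparison without Dox over 18193 genes, 93 of 100 genes changed by 1 and 37 of 100 changed by 0.5 on the log2 scale passed, with 5 of 17993 unchanged genes. The simulation used independent noise and changed a far smaller share of genes than the 28.6% called in the data. The threshold depends on that share, so these rates need not hold for the real comparison.

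The members and gene lists were chosen with earlier results of these data known. Named genes are Dmrta2, the 15 largest increases and decreases whose arrays did not overlap, list members, the 5 largest changes with Dox in each direction, and the longest runs of neighbouring genes. The alternatives were other probe set averages, a level filter, fewer arrays, array weights, a robust prior, other scalings, the replicate number as a block, leaving out each array, the parental arrays with Dox as reference and a 1.5-fold minimum.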

Additional observations from a re-analysis of the deposited data

Results flagged for a closer look

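For the genes given here, the line difference with Dox and that without Dox were unequal, by limma's test of the change (adjusted p under 0.05). Each value is the difference with Dox minus that without, on the log2 scale. The genes chosen for the size of this change were Nr2e1 (-3.96), Gm20083 (-3.40), Mab21l2 (-3.36), Wfdc1 (-3.34), Mab21l1 (-3.17), Srgn (3.27), Wnt1 (3.16), Foxc2 (3.06), Gm3764 (2.88) and Defa31 (2.28). Of the other genes named above, the change was negative for A2m (-3.02), Dmrta1 (-2.84), Otx1 (-2.65), Dmrta2 (-2.52), Cyp26b1 (-2.24), Rspo3 (-2.18), En2 (-2.15), Olig2 (-1.83), Th (-1.82), Lhx2 (-1.80), Zic1 (-1.79), Dmrt1 (-1.73), Rspo2 (-1.71), Nhlh1 (-1.71), Slc17a6 (-1.63), Fabp7 (-1.62), Dusp6 (-1.58), Fezf1 (-1.48), Tgm2 (-1.39), Dmrt3 (-1.37), Gbx2 (-1.17), Wnt3 (-1.16), Zic4 (-1.11), Six3 (-0.97), Emx2 (-0.88), Olig1 (-0.88), Nap1l5 (-0.86), Elavl3 (-0.84) and Tubb3 (-0.70). It was positive for Fgf18 (1.92), Dab2 (1.86), Ddn (1.59), Aldh1a2 (1.46), Meox1 (1.31), F3 (1.13), Dlk1 (1.06), Tek (0.98), Zfp42 (0.97) and Lamc1 (0.88). With 1 array left out, 209 to 384 genes in all passed this test, against 511 with all arrays.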

How the results depend on the processing

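The count of 5206 genes without Dox was 634 with a 1.5-fold minimum, and 3075 to 3832 with 1 array left out. Of the 5206, 2214 had a level of 8 or more. When the 6011 genes of that level were tested and adjusted by themselves, 3013 passed, these 2214 among them. The counts of higher and lower list members at a level of at least 8 come from that separate test. They are therefore not parts of the main counts. With Dox the count of 4467 was 2868 to 3503 with 1 array left out. In the separate test of genes of level 8 or more, 2469 passed with Dox, 1730 of them among the 4467. The 511 genes whose difference changed with Dox were 917 (403 upwards and 514 downwards) after quantile normalization again and 209 to 384 with 1 array left out; the cause was not tested. Under that normalization the difference of Gm3764 without Dox, 0.69, was -0.0497. It was run on centred values, which limits it as stated above.

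The median of chromosome 10, -0.14, was -0.13 against the parental arrays with Dox, -0.26 at level 8 or more and -0.16 to -0.13 with 1 array left out. That of chromosome 11, 0.20, was 0.19, 0.28 and 0.20 to 0.21 in the same settings, 0.197 with arrays centred and 0.17 with all probe sets averaged.

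The replicate numbers showed at most a weak pairing of the arrays. Over genes, deviations of same-numbered arrays from their group means correlated at -0.18 to 0.19 between groups. With the number as a replicate block, 4924 genes passed as a fixed term, 4804 of them among the 5206, and 5204 as a random block. The 30 largest changes kept their direction and their side of the threshold in the alternatives run for them; the filter on level could be run for 11 of the 30, and probe sets tested by themselves were not compared gene by gene.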
